A study of Homo sapiens with 9 samples.

Results

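The aminoacyl-tRNA synthetase genes were followed across 3 genotypes of MV4;11 cells, a human acute myeloid leukaemia line. Members were the rows of the deposited count table whose symbols have the synthetase pattern of an amino acid letter followed by ARS, with or without a 1 or a 2, together with FARSA, FARSB and EPRS. This gave 37 of the 26485 rows, 20 for cytosolic enzymes and 17, with symbols ending in 2, for mitochondrial ones. All 37 passed the filter on low counts and were tested among 12845 genes. The groups were cells mutated to MYC K148Q, with glutamine in place of a lysine, cells mutated to MYC K148R, with arginine there, and parental cells, with 3 untreated libraries each. All were grown in RPMI. The titles mark the mutant lines Q2 and R14, and the labels do not say whether each is 1 clone, whether an unmutated MYC copy remains or whether its libraries are separate cultures, so p-values measure the spread between these libraries.

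Aminoacyl-tRNA synthetases attach each amino acid to its own tRNA, the step that sets which amino acid the ribosome adds for a codon. Most amino acids have a cytosolic and a mitochondrial enzyme encoded by separate nuclear genes. GARS and KARS each encode both forms, EPRS joins the glutamate and proline enzymes in 1 protein, and the cytosolic phenylalanine enzyme is built from the FARSA and FARSB subunits. Human mitochondria make glutaminyl-tRNA indirectly, from tRNA first charged with glutamate by EARS2. MYC and ATF4, the transcription factor of the amino acid starvation response, are both known to raise cytosolic synthetase transcripts, and WARS, the tryptophan enzyme, is a classic interferon gamma response gene.

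Promoter sequences are shown first for an element that several of these genes share. RefSeq windows on GRCh38.p14, from 250 bases before to 50 bases after an annotated start, matched 30 of the 37 members, and AARS2, DARS, LARS, VARS, VARS2 and YARS were among those not matched. The core of the C/EBP-ATF response element that ATF4 binds, searched as TGATGNAA on both strands, was found in 7 of 16 cytosolic members with a window (43.8%), in 1 of 14 mitochondrial members (7.14%) and in 4.46% of all 27305 genes with windows. A match is a description of these letters only. In the following 30-base stretches, read on the strand of the gene, capitals mark the element, which reads TTNCATCA where it lies on the other strand.
AARS: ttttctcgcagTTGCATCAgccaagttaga
CARS: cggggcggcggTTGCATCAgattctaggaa
GARS: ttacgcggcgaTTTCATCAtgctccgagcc
IARS: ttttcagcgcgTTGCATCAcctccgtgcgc
MARS: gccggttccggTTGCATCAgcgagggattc
NARS: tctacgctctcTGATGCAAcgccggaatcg
TARS: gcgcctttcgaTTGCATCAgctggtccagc
YARS2: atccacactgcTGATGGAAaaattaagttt
The stretches lie at chr16:70289675-70289704 (AARS, minus strand), chr11:3057407-3057436 (CARS, minus), chr7:30594834-30594863 (GARS, plus), chr9:92293692-92293721 (IARS, minus), chr12:57488053-57488082 (MARS, plus), chr18:57621804-57621833 (NARS, minus), chr5:33440956-33440985 (TARS, plus) and chr12:32756076-32756105 (YARS2, minus). Counting the start base as 0, the element began at -33 in GARS, -13 in IARS, -4 in MARS, -2 in CARS, 2 in TARS and 14 in NARS, and farther upstream at -187 in AARS and -197 in YARS2. The E-box CACGTG, which MYC binds and which reads the same on both strands, was present in 1 of 16 cytosolic members (IARS), in 3 of 14 mitochondrial members (CARS2, EARS2 and MARS2) and in 8.77% of all genes.

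WARS has a pair of annotated start regions, shown because its counts rose most among the members. The 160 bases before each start, at chr14:100375348-100375507 and chr14:100376328-100376487 on the minus strand, are printed with capitals for the gamma-activated site core TTCNNNGAA and the interferon-stimulated response element core, a pair of GAAA runs with 2 bases between them.
WARS downstream start: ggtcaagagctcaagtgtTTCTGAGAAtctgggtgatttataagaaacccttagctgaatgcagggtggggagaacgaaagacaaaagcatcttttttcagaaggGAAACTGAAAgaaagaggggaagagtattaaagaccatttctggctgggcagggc
WARS upstream start: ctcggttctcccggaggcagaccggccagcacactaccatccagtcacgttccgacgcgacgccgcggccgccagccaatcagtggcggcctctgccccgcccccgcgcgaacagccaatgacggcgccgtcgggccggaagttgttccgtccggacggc
Both cores were present before the downstream start and neither was found before the upstream one. Over both strands TTCNNNGAA occurred in 9.38% and the paired GAAA in 4.38% of all genes with windows. Counts per gene do not show which start was used.

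Total counts ranged from 13747087 to 18938391 per library, and 67353 to 95488 of them fell on the 37 genes. Levels are given as CPM, counts scaled to the effective size of each library. MYC itself had 489, 491 and 439 CPM in K148Q, 382, 379 and 375 CPM in K148R, and 335, 329 and 336 CPM in parental libraries, and gene counts do not show the mutated codon. The myeloid genes PTPRC, SPI1, CD33, FLT3, MPO, HOXA9, MEIS1 and CEBPA were detected, MPO at only 2.88 to 7.52 CPM on average, while CD3E and EPCAM had 0 counts in all libraries. Of 8 markers of other cell types 3 passed the filter, and the summed level of the list was 214 to 222 CPM in K148Q, 181 to 191 CPM in K148R and 98.0 to 103 CPM in parental libraries, nearly all of it PECAM1, which leukocytes also express. Its part in the results was not tested. K148Q replicate 3 stood apart from its group. Its counts differed from K148Q replicates 1 and 2 by 17.3 and 17.8 chi-square units per degree of freedom, where those replicates differed from each other by 1.34, and its deviation ran against the GC content of genes (Spearman rho -0.72 over 12140 genes of the same libraries, given as a description). The common biological coefficient of variation was 0.0738.

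Per length of exon, cytosolic synthetase genes mostly stood above mitochondrial ones. The length was that of all annotated exons of a gene joined together. It can exceed the length of the transcripts present, so ranks per kb are approximate. In parental cells FARSA was highest at 118 CPM per kb and VARS2 lowest at 3.72 CPM per kb, and the 18 highest genes included a single mitochondrial one, IARS2, at 50.5 CPM per kb. YARS, HARS and CARS, the last at 5.80 CPM per kb, were the lowest cytosolic genes on this scale. Without scaling to length, PARS2 was the lowest member in parental cells, at 9.46 CPM on average, where VARS2 had 31.4 CPM. The lowest count of any member in any library was 122 reads, for PARS2.

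**Figure D1:**
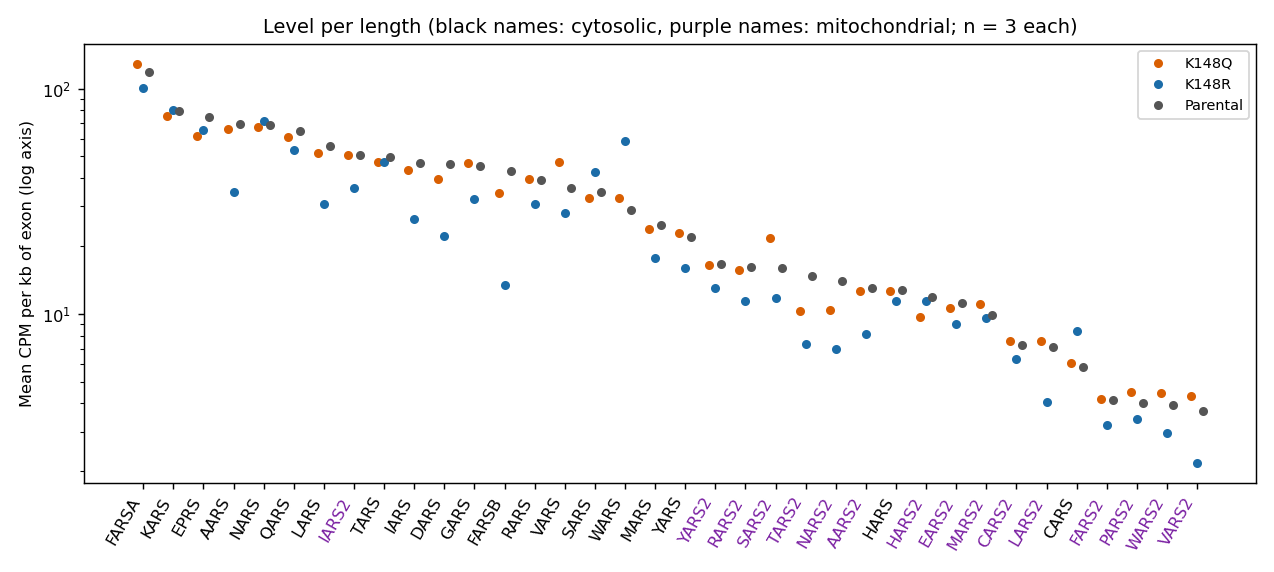
Mean CPM per kb of exon (log axis, n = 3 libraries) of synthetase genes in K148Q, K148R and parental cells, ordered by the parental level. Mitochondrial genes fill most of the lower right, down to VARS2 at 3.72 CPM per kb in parental cells, while FARSA stands at the top with 118 CPM per kb.

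The first comparison asked how the set differed in cells with glutamine at that residue of MYC. In K148Q cells 3 synthetase genes rose and 7 fell against parental cells, each by less than 2-fold, and 27 did not pass the test. The 10 called genes were 27% of the members, against 53.3% of all genes tested, with 8.11% of members higher against 27% of all genes and 18.9% lower against 26.3%. SARS2, VARS and WARS were the genes that rose, and TARS2, NARS2, FARSB, HARS2, EPRS and DARS were among those that fell. The median log2 fold change was -0.07 for the cytosolic and 0.01 for the mitochondrial genes, beside -0.01 for all genes, and -0.03 and -0.04 with counts corrected for GC content. Without K148Q replicate 3, 7 members rose and 10 fell, 45.9% of members against 64.2% of all genes. With counts corrected for GC content, 6 rose and 14 fell, 54.1% against 59.9%. The gap to all genes over both directions together was thus smaller in both runs. By direction, the GC content correction gave 16.2% of members higher against 30.2% of all genes. The share of members lower, 37.8%, was then above the 29.6% of all genes.

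The second comparison asked the same of arginine there. In K148R cells 28 of the 37 genes fell and 3 rose against parental cells, 14 of 20 cytosolic and 14 of 17 mitochondrial genes falling. The 31 called genes were 83.8% of the members, against 75.1% of all genes tested. The share of members that fell, 75.7%, stood against 37.3% of all genes, and the share that rose, 8.11%, against 37.8%. FARSB, DARS and NARS2 were among the 4 of 37 members that fell by 2-fold or more, beside 1896 of all 12845 genes tested. AARS and TARS2 lay just short of that. WARS, at 2.03-fold, was the 1 member that rose by more than 2-fold, beside 1853 of all genes. The median log2 fold change was -0.32 for the cytosolic and -0.43 for the mitochondrial genes, while the median over all genes was 0.00. With the GC content correction the order turned, with -0.48 for the cytosolic and -0.46 for the mitochondrial genes. Summed over members, the level was 5523 ± 119.7 CPM in K148Q, 4494 ± 64.1 CPM in K148R and 5707 ± 44.0 CPM in parental cells (SD, n = 3). These are shares of all counted RNA, so fewer synthetase transcripts per cell, more of other RNA and a change in the mix of cells cannot be told apart.

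The third comparison set the substitutions against each other. In K148R cells 28 genes were lower and 4 higher than in K148Q cells, 75.7% and 10.8% of members against 34.5% and 36.6% of all genes. The called genes made up 86.5% of members and 71% of all genes. WARS, CARS, SARS and HARS2 were the higher ones, and all 16 mitochondrial genes other than HARS2 were lower. Among these, MARS2 (-0.20, adjusted p = 0.049) missed the threshold without K148Q replicate 1 (adjusted p = 0.11), K148Q replicate 2 (0.058), K148R replicate 2 (0.17), K148R replicate 3 (0.11), parental replicate 2 (0.06) or parental replicate 3 (0.05), and EARS2 (-0.23, adjusted p = 0.019) missed it without K148Q replicate 1 (0.092), K148R replicate 2 (0.054) or K148R replicate 3 (0.08). QARS, cytosolic (-0.19, adjusted p = 0.011), missed it without K148Q replicate 2 (0.052). The median log2 fold change was -0.36 for cytosolic and -0.48 for mitochondrial genes, beside 0.02 for all genes. The comparisons share libraries, so their counts are not independent of each other.

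**Figure D2:**
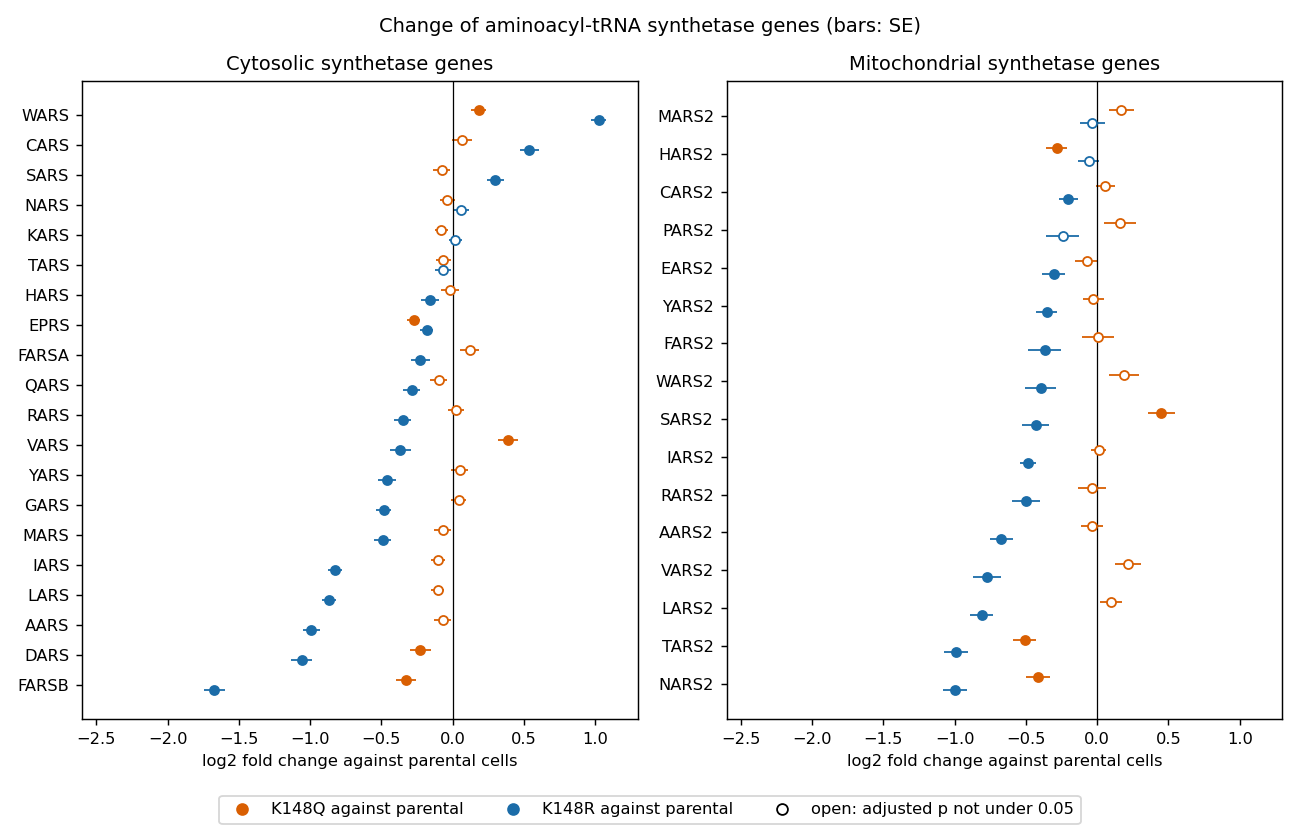
Log2 fold change with SE of synthetase genes in K148Q cells and in K148R cells against parental cells (edgeR), with open points where the adjusted p was not under 0.05. The K148R points shown run from -1.67 for FARSB to 1.02 for WARS, and K148Q points lie between -0.51 for TARS2 and 0.45 for SARS2.

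DARS, the cytosolic aspartate enzyme and a member of the multi-synthetase complex, had 152, 151 and 174 CPM in K148Q, 80.3, 89.5 and 97.9 CPM in K148R, and 189, 182 and 187 CPM in parental libraries. All K148R libraries were below the others, with a log2 fold change of -1.06 (adjusted p = 7.3e-09 against parental cells), and the K148Q fall of 0.23 on the log2 scale (adjusted p = 0.018) missed the threshold without K148Q replicate 1 (adjusted p = 0.072), K148Q replicate 2 (0.071), parental replicate 1 (0.063) or parental replicate 3 (0.058). With the GC content correction the fall was 0.11 (adjusted p = 0.03). That correction fitted each library's deviation from the mean of all 9 libraries against GC content and entered the fitted trend as an offset. It therefore also removes any difference between genotypes that runs with GC content.

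The subunits of the cytosolic phenylalanine enzyme changed by unequal amounts. FARSB (chromosome 2, 222570536 to 222656337), the beta subunit, had 112, 108 and 126 CPM in K148Q, 45.4, 41.7 and 48.8 CPM in K148R, and 142, 148.3 and 144 CPM in parental libraries. The genotypes did not overlap, with log2 fold changes of -1.67 ± 0.075 in K148R cells (adjusted p = 3.8e-11) and -0.33 ± 0.071 in K148Q cells (adjusted p = 0.0015) against parental cells. The K148Q value was -0.21 with the GC content correction. FARSA, the catalytic alpha subunit, had 325, 336 and 278 CPM in K148Q, 258, 245 and 235 CPM in K148R, and 284, 289.7 and 292 CPM in parental libraries. K148R libraries were all below the others, and K148Q and parental libraries overlapped. FARSA fell by 0.23 on the log2 scale in K148R cells (adjusted p = 0.0058), or by 0.47 with counts corrected for GC content. In K148Q cells FARSA did not pass (log2 fold change 0.12, adjusted p = 0.14), and K148Q replicate 3 was low, so that without it FARSA rose by 0.21 (adjusted p = 3.7e-05). The longest annotated transcripts contain 60.3% G and C in FARSA and 41.6% in FARSB.

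NARS2 and TARS2, the mitochondrial asparagine and threonine enzymes, were lower in both mutants. NARS2 had 30.6, 33.7 and 34.3 CPM in K148Q, 21.9, 23.9 and 20.1 CPM in K148R, and 42.7, 43.2 and 45.8 CPM in parental libraries. NARS2 fell in K148Q cells (log2 fold change -0.42, adjusted p = 0.00071) and in K148R cells (-1.0, adjusted p = 5.5e-08). TARS2 had 44.6, 44.7 and 36.7 CPM in K148Q, 30.5, 29.1 and 30.7 CPM in K148R, and 62.8, 57.1 and 59.5 CPM in parental libraries. TARS2 fell by 0.51 (adjusted p = 0.00014) and 0.99 (adjusted p = 6.4e-08) on the log2 scale in K148Q and K148R cells, and in neither gene did libraries of different genotypes overlap. Their cytosolic counterparts did not pass in either mutant, NARS with 275, 294 and 282 CPM and TARS with 270, 270 and 283 CPM on average in K148Q, K148R and parental cells. Without K148Q replicate 3, TARS was called lower in K148Q cells (-0.10, adjusted p = 0.032). With counts corrected for GC content, NARS was higher by 0.18 (adjusted p = 7e-05) and TARS by 0.08 (adjusted p = 0.04) in K148R cells.

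WARS, CARS and SARS, all cytosolic, were the genes that rose in K148R cells. WARS (chromosome 14, 100333788 to 100376805), the tryptophan enzyme, had 214, 212 and 199 CPM in K148Q, 369, 391 and 361 CPM in K148R, and 185, 183 and 183 CPM in parental libraries. The genotypes did not overlap, and WARS rose by log2 fold changes of 0.18 ± 0.0517 in K148Q cells (adjusted p = 0.0082) and 1.02 ± 0.0517 in K148R cells (adjusted p = 1.4e-10). The K148Q rise was 0.10 with the GC content correction (adjusted p = 0.017). CARS, the cysteine enzyme, had 61.4, 64.0 and 57.2 CPM in K148Q, 88.2, 85.1 and 80.3 CPM in K148R, and 57.4, 55.9 and 61.2 CPM in parental libraries. Its K148R libraries all lay above the rest (log2 fold change 0.54 against parental cells, adjusted p = 4.9e-06), while K148Q and parental libraries overlapped. SARS, the serine enzyme, had 131, 131 and 115 CPM in K148Q, 169, 165 and 156 CPM in K148R, and 135, 131 and 132 CPM in parental libraries. It rose by a log2 fold change of 0.30 in K148R cells (adjusted p = 0.00046), or 0.16 with the GC content correction, and K148Q and parental libraries overlapped. SARS was called lower in K148Q cells with that correction (-0.17, adjusted p = 0.00086).

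**Figure D3:**
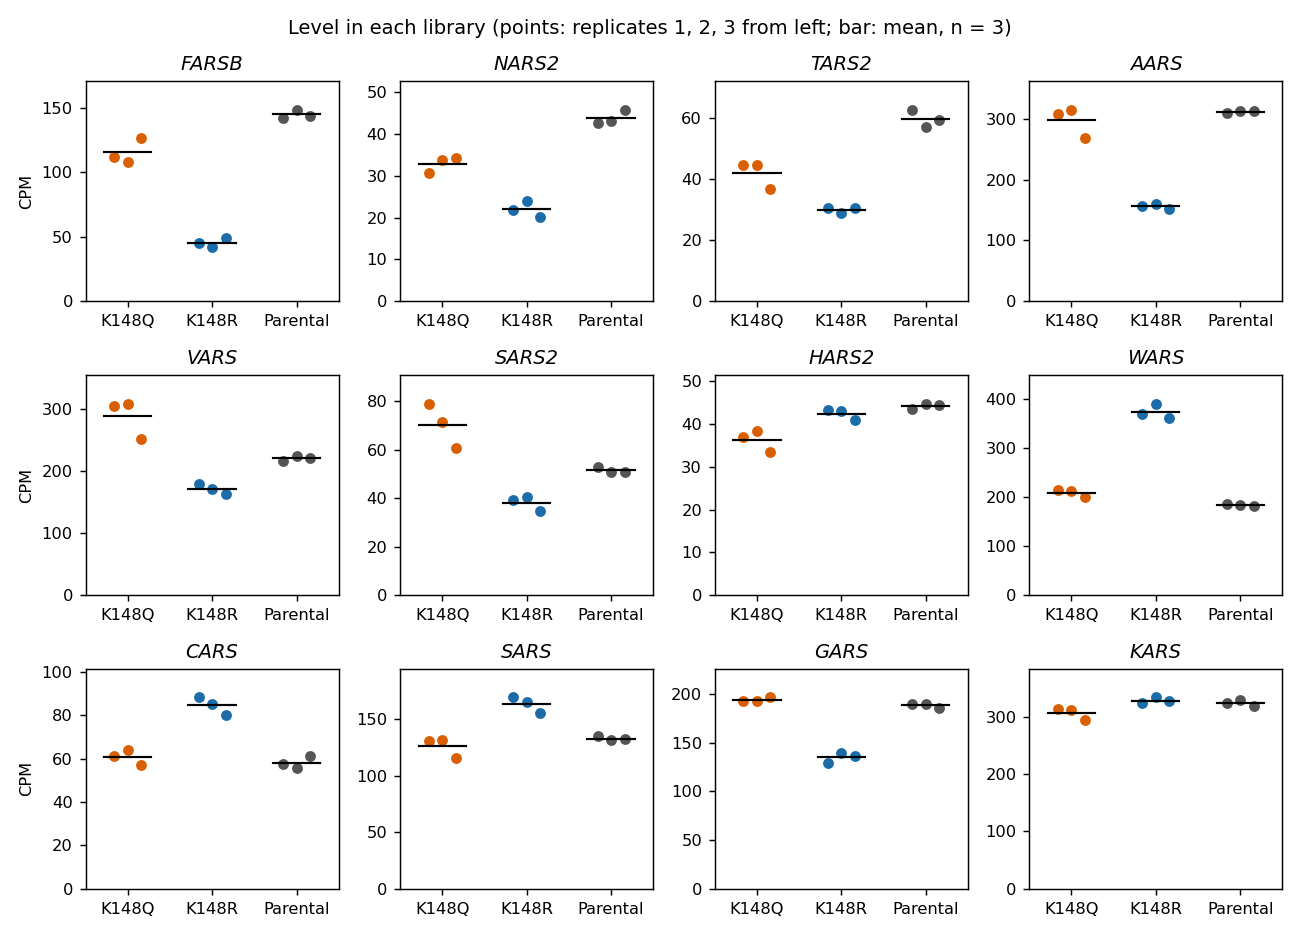
CPM of 12 synthetase genes in each library of K148Q, K148R and parental cells, with the mean of 3 libraries as a bar and the axis starting at 0. FARSB, NARS2 and TARS2 step down in both mutants, VARS and SARS2 are highest in K148Q and lowest in K148R cells, WARS, CARS and SARS are highest in K148R cells, HARS2 is lowest in K148Q cells, and KARS stays between 295 and 334 CPM.

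VARS and SARS2 rose in K148Q cells and fell in K148R cells. VARS, the cytosolic valine enzyme, had 304, 308 and 252 CPM in K148Q, 179, 171 and 163 CPM in K148R, and 217, 224 and 220 CPM in parental libraries. Its log2 fold change was 0.39 in K148Q cells (adjusted p = 0.00037) and -0.37 in K148R cells (adjusted p = 0.00028). With the GC content correction these values were 0.26 and -0.63. SARS2, the mitochondrial serine enzyme, had 79.1, 71.3 and 60.7 CPM in K148Q, 39.3, 40.5 and 34.6 CPM in K148R, and 52.8, 50.9 and 50.7 CPM in parental libraries. Its log2 fold change was 0.45 in K148Q cells (adjusted p = 0.00087) and -0.43 in K148R cells (adjusted p = 0.00076), or 0.34 and -0.69 with the GC content correction. In both genes no library of one genotype overlapped another, and K148Q replicate 3 was the lowest of the K148Q libraries. K148R against K148Q, the log2 fold change was -0.75 for VARS (adjusted p = 2.3e-07) and -0.88 for SARS2 (adjusted p = 7.7e-07).

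The mitochondrial valine and leucine enzymes were lower in K148R cells than in both other genotypes. VARS2 had 40.8, 37.3 and 31.4 CPM in K148Q, 18.0, 18.8 and 18.4 CPM in K148R, and 30.4, 31.6 and 32.2 CPM in parental libraries. Its log2 fold change was -0.77 in K148R cells (adjusted p = 4.3e-06), and the K148Q value of 0.22 did not pass (adjusted p = 0.063) but did without K148Q replicate 3 (0.33, adjusted p = 0.00032). LARS2 had 56.0, 52.4 and 47.4 CPM in K148Q, 26.9, 29.3 and 26.7 CPM in K148R, and 50.2, 47.2 and 47.9 CPM in parental libraries, a log2 fold change of -0.81 in K148R cells (adjusted p = 3.2e-07). The K148Q value of LARS2 was 0.10 (adjusted p = 0.3), and it was called higher without K148Q replicate 3 (0.17, adjusted p = 0.024). K148Q and parental libraries overlapped in both genes. The annotated exons of VARS2 share 22% of their length with GTF2H4, and those of SARS2 share 46.2% with another annotated gene on the same strand, so how reads were assigned there is uncertain.

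In the multi-synthetase complex, a cytosolic particle that holds EPRS, IARS, LARS, MARS, QARS, RARS, KARS and DARS, 2 of 8 genes (EPRS and DARS) fell in K148Q cells, 25% against 26.3% of all genes, and 7 of 8 fell in K148R cells, 87.5% against 37.3%. Of the 12 cytosolic genes outside it, 1 fell and 2 rose in K148Q cells, 8.33% and 16.7% against 26.3% and 27% of all genes. In K148R cells 7 of them fell and 3 rose, 58.3% and 25% against 37.3% and 37.8%. LARS, the leucine enzyme, which also takes part in leucine sensing by mTORC1, had 421 ± 12.4 CPM in K148Q, 248.5 ± 2.55 CPM in K148R and 453 ± 14.7 CPM in parental cells (SD, n = 3). IARS, the isoleucine enzyme, was at 322 to 324 CPM in K148Q, 189 to 204 CPM in K148R and 343 to 351 CPM in parental libraries. Both were well below parental levels in K148R cells (log2 fold changes -0.87 and -0.83), and in K148Q cells neither passed (-0.11 and -0.10, adjusted p = 0.067 and 0.079). Without K148Q replicate 3 both were called lower there (LARS -0.12, adjusted p = 0.0051, and IARS -0.09, adjusted p = 0.036), while the GC content correction put LARS at 0.011. EPRS was at 335 ± 4.67, 357 ± 10.3 and 406 ± 8.98 CPM, a fall in K148Q cells (log2 fold change -0.27, adjusted p = 0.00017) and a smaller one in K148R cells (-0.18, adjusted p = 0.0021) that was lost with the GC content correction (-0.01, adjusted p = 0.71).

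KARS, which also belongs to that complex, did not pass in either mutant, though with the GC content correction it was called lower in K148Q cells (-0.08, adjusted p rounding to 0.05). It had 313, 311 and 295 CPM in K148Q, 323, 334 and 328 CPM in K148R, and 323, 329 and 319 CPM in parental libraries. The K148R libraries overlapped the parental ones and the K148Q libraries lay below both, with log2 fold changes of -0.08 ± 0.0465 in K148Q (adjusted p = 0.16) and 0.02 ± 0.0464 in K148R cells (adjusted p = 0.72). GARS, the other gene that serves cytosol and mitochondria, had 193, 193 and 197 CPM in K148Q, 129, 139.6 and 136 CPM in K148R, and 190.2, 189.9 and 186 CPM in parental libraries. It fell in K148R cells (log2 fold change -0.48, adjusted p = 6.3e-07), and the K148Q value of 0.04 did not pass (adjusted p = 0.51). The dual-compartment genes thus differed from each other in K148R cells, where GARS libraries lay below all others and KARS libraries overlapped the parental ones.

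AARS, the alanine enzyme, had 308, 315 and 269 CPM in K148Q, 157, 161 and 152 CPM in K148R, and 309, 313 and 313 CPM in parental libraries. Its K148R libraries were about level with each other and below all others, a log2 fold change of -0.99 ± 0.060 (adjusted p = 1.2e-09) against parental cells. The 7 cytosolic genes shown with the TGATGNAA element did not move as 1 block in K148R cells. AARS, IARS, MARS (-0.49) and GARS fell, CARS rose, and NARS and TARS did not pass, while mitochondrial YARS2 fell (-0.35). Of these 7 cytosolic genes 57.1% fell and 14.3% rose, against 37.3% and 37.8% of all genes. Among all cytosolic members 70% fell and 15% rose. In K148Q cells the log2 fold changes of the 7 genes and of YARS2 lay between -0.10 and 0.06, with IARS nearest to the threshold (adjusted p = 0.079). None of them was called there, against 53.3% of all genes. AARS and MARS were called lower there with the GC content correction.

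HARS and HARS2, the cytosolic and mitochondrial histidine enzymes, lie head to head on chromosome 5, and their annotated exons overlap by 437 bases on opposite strands. HARS had 101, 103 and 92.0 CPM in K148Q, 92.7, 91.9 and 84.1 CPM in K148R, and 97.8, 104 and 99.0 CPM in parental libraries. Its K148R fall of 0.16 on the log2 scale (adjusted p = 0.037) missed the threshold without K148R replicate 3 (adjusted p = 0.16), parental replicate 2 (0.11) or parental replicate 3 (0.062), and the K148Q value of -0.02 did not pass (adjusted p = 0.82). HARS2 had 37.0, 38.4 and 33.5 CPM in K148Q, 43.3, 43.0 and 41.0 CPM in K148R, and 43.5, 44.8 and 44.4 CPM in parental libraries. It was lowest in all K148Q libraries (log2 fold change -0.28, adjusted p = 0.0049 against parental cells) and did not pass in K148R cells (-0.06, adjusted p = 0.48), where it was called lower with the GC content correction (-0.17, adjusted p = 0.011). Where the strand of counting is not known, reads from the shared bases cannot be assigned to either gene.

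All 4 remaining cytosolic genes and 8 of the 10 remaining mitochondrial genes fell in K148R cells, where 37.3% of all genes did. QARS, RARS, MARS and YARS, the enzymes for glutamine, arginine, methionine and tyrosine, had log2 fold changes of -0.29, -0.35, -0.49 and -0.46. The GC content correction moved QARS to -0.48 and RARS to -0.11, CARS2 to -0.39 and RARS2 to -0.28, all still called. AARS2, IARS2, RARS2, YARS2, WARS2, FARS2, EARS2 and CARS2 ranged from -0.67 for AARS2 to -0.20 for CARS2, and WARS2 was not called with the GC content correction (-0.19, adjusted p = 0.073). PARS2, the mitochondrial proline enzyme (-0.24, adjusted p = 0.068), and MARS2, the methionine one (-0.04, adjusted p = 0.72), did not pass, though PARS2 did without K148R replicate 2 (-0.32, adjusted p = 0.032) or with the GC content correction (-0.42, adjusted p = 0.002). In K148Q cells the log2 fold changes of these 14 genes lay between -0.10 and 0.19, with MARS2 nearest to the threshold (adjusted p = 0.12). With the GC content correction 7 of these 14 were called in K148Q cells, where 59.9% of all genes were called (29.6% lower and 30.2% higher). QARS (-0.20), MARS (-0.17), EARS2 (-0.16) and AARS2 (-0.14) were lower and RARS (0.14), WARS2 (0.28) and IARS2 (0.08) higher. YARS was called higher there without K148Q replicate 3 (0.11, adjusted p = 0.041).

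The 2 structural classes of synthetases, which have unrelated catalytic domains, were both represented by 18 genes, with EPRS holding 1 domain of each. In K148R cells 15 class I genes (83.3%) and 12 class II genes (66.7%) fell, against 37.3% of all genes. In K148Q cells 2 class I genes rose (11.1%, against 27% of all genes), and 6 class II genes fell (33.3%, against 26.3%). With the GC content correction the class I genes MARS, QARS and EARS2 were called lower there too, and the difference between the classes was not tested. FARSB, DARS and NARS2, which fell by 2-fold or more in K148R cells, are class II enzymes. With the GC content correction DARS (-0.82) and NARS2 (-0.86) fell by less than that. Class II AARS (-1.16) and TARS2 (-1.17) and class I VARS2 (-1.01) then fell by more.

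Ratios within each library compared the enzymes of a pair for the same amino acid. Over 14 such pairs the log2 ratio of cytosolic to mitochondrial CPM was higher in K148R than in parental cells in 8 and lower in 6. For WARS over WARS2 it was 5.04 ± 0.241 in K148R and 3.61 ± 0.0447 in parental cells, and for NARS over NARS2 it was 3.74 ± 0.0752 in K148R and 2.68 ± 0.0567 in parental cells (SD, n = 3). For MARS over MARS2 it went the other way, at 2.11 ± 0.139 in K148R and 2.56 ± 0.0990 in parental cells. SARS over SARS2 was among the pairs that separated all 3 genotypes, at 0.84 ± 0.107 in K148Q, 2.10 ± 0.0706 in K148R and 1.37 ± 0.0123 in parental cells. Others that did so included the NARS, TARS, VARS, IARS and HARS pairs, with NARS over NARS2 at 3.06 ± 0.0849 in K148Q cells. Mitochondrial members held 17.3% ± 0.130 of the summed synthetase CPM in K148Q, 14.1% ± 0.205 in K148R and 17.5% ± 0.169 in parental cells. Differences between the ratios were not tested.

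**Figure D4:**
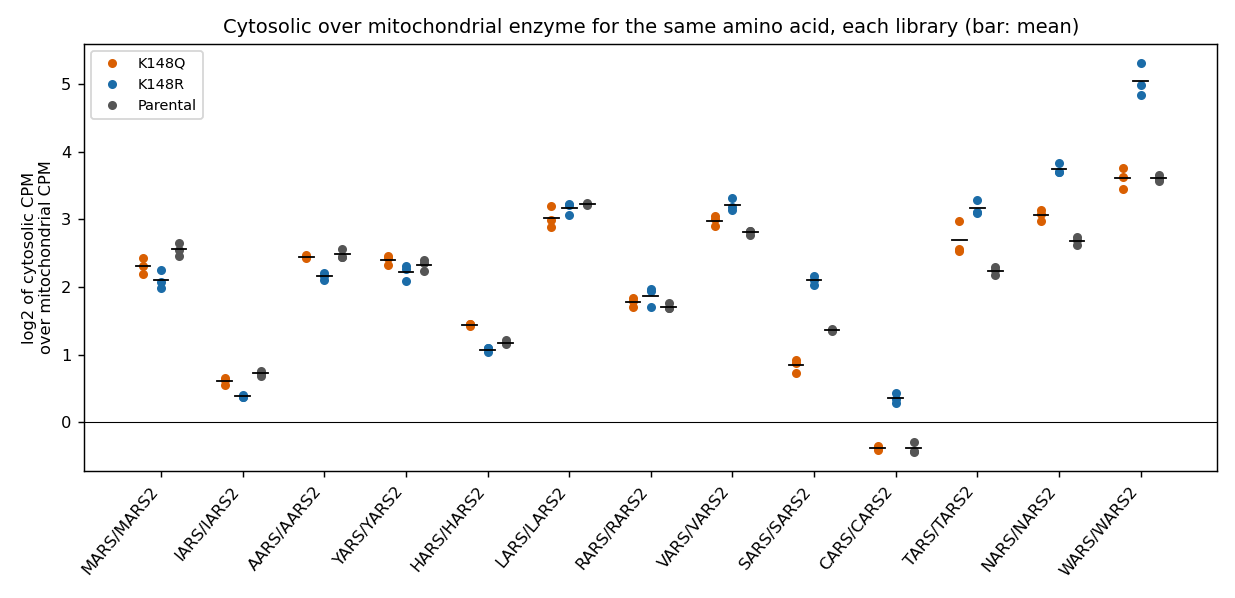
Log2 ratio of cytosolic to mitochondrial CPM for pairs of enzymes in each K148Q, K148R and parental library, with the mean as a bar, ordered by the K148R difference from parental cells. The difference runs from -0.45 for MARS over MARS2 to 1.43 for WARS over WARS2, and CARS over CARS2 is above 0 in K148R libraries only.

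Several synthetase genes start beside a gene transcribed the other way. RARS2 starts 64 bases from ORC3, a subunit of the origin recognition complex, which was at 35.4 ± 4.4, 17.4 ± 0.576 and 50.1 ± 1.69 CPM in K148Q, K148R and parental cells (SD, n = 3). ORC3 fell in both mutants (log2 fold changes -0.50 and -1.52 in K148Q and K148R cells), while RARS2 fell in K148R cells (-0.50) and did not pass in K148Q cells. AARS starts 120 bases from DDX19B and FARS2 105 bases from LYRM4, and both neighbours fell in K148R cells (-0.45 and -0.86). Overlapping exons of opposite strands add uncertainty where they occur, as for MARS, which shares 355 bases with DDIT3.

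Partner proteins of charging were examined beside the enzymes. Of 16 tested scaffold, proofreading, amidation and selenocysteine factors, 2 rose and 1 fell in K148Q cells, 12.5% and 6.25% against 27% and 26.3% of all genes. In K148R cells 3 rose (18.8%, against 37.8% of all genes) and 6 fell. The 37.5% that fell in K148R cells was near the 37.3% of all genes. AIMP1, a scaffold of the multi-synthetase complex, was at 111 ± 7.02, 84.6 ± 8.63 and 105 ± 5.85 CPM in K148Q, K148R and parental cells and fell in K148R cells (log2 fold change -0.32, adjusted p = 0.0019). The scaffold gene AIMP2 rose in K148Q cells (0.32, adjusted p = 0.0005) and did not pass in K148R cells (-0.13, adjusted p = 0.069). These genes do not span the list, whose log2 fold changes in K148R cells ran from -2.56 to 0.85. QRSL1 and GATB, subunits of the enzyme that turns glutamate into glutamine on mitochondrial tRNA, fell in K148R cells (-0.61 and -0.48), whereas the third subunit, GATC, did not pass (-0.09, adjusted p = 0.24). SEPHS1 fell and SEPHS2, which makes the selenium donor for selenocysteine, rose in K148R cells (-1.64 and 0.35).

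Translation factors of both compartments were also counted, and the difference between their lists was not tested. Of 9 mitochondrial translation factors, 3 fell in K148Q cells (33.3%, against 26.3% of all genes), and 7 fell and 1 rose in K148R cells (77.8% lower, against 37.3%). TUFM, which carries charged tRNA to the mitochondrial ribosome, was at 338 ± 23.4, 222 ± 6.4 and 335 ± 8.22 CPM in K148Q, K148R and parental cells. Of 6 cytosolic elongation factors, 1 rose and 4 fell in K148Q cells (66.7% lower, against 26.3% of all genes), and 2 rose and 1 fell in K148R cells (33.3% higher, against 37.8%). EEF1A1, which carries charged tRNA to the cytosolic ribosome and has near-identical pseudogenes that make its count uncertain, had a log2 fold change of 0.14 in K148R cells (adjusted p = 0.0085) and -0.50 in K148Q cells (adjusted p = 1.9e-07). EEF2, the translocation factor, likewise was higher in K148R (0.37) and lower in K148Q cells (-0.54).

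Other gene groups moved beside these results. All 12 proliferation genes were lower by more than 2-fold in K148R cells, beside 1896 of all 12845 genes tested. In K148Q cells 3 rose and 5 fell, 25% and 41.7% against 27% and 26.3% of all genes. Their summed levels were 6288 to 6496 CPM in K148Q, 986 to 1016 CPM in K148R and 6839.8 to 6912 CPM in parental libraries. Of 22 amino acid response and ATF4 target genes tested, 8 rose and 7 fell in K148Q cells, 36.4% and 31.8% against 27% and 26.3% of all genes, and 13 rose and 8 fell in K148R cells, 59.1% and 36.4% against 37.8% and 37.3%. ATF4 itself was at 208 ± 13.6, 277 ± 11.4 and 221 ± 4.47 CPM in K148Q, K148R and parental cells, and rose in K148R cells (log2 fold change 0.32, adjusted p = 0.00012). The cystine importer gene SLC7A11 rose in both mutants, with 4.32 ± 0.974, 79.3 ± 7.34 and 1.07 ± 0.328 CPM, while PHGDH, which starts serine synthesis, fell in K148R cells (-1.94), and ASNS, the asparagine synthetase gene, did not pass there (-0.15, adjusted p = 0.13). Of 12 interferon gamma response genes tested, 3 rose and 7 fell in K148Q cells, 25% and 58.3% against 27% and 26.3% of all genes. In K148R cells 6 rose and 5 fell, 50% and 41.7% against 37.8% and 37.3%. Their summed levels were 418 to 446 CPM in K148Q, 856 to 883 CPM in K148R and 446 to 451 CPM in parental libraries. IRF1 fell in both mutants (-0.26 in K148Q and -0.38 in K148R cells). The part of these groups in the synthetase changes was not tested.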

How the data were processed

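The authors deposited raw read counts per gene symbol, 1 column per library, with no normalisation, and no value column was left unused. Per the submitters' processing notes, the tools were HISAT2 2.0.5, featureCounts 1.5.2 and FastQC 0.11.7, on GRCh38. Their annotation, strand and options were not stated. Of 26485 symbols, 12845 passed filterByExpr (count minimum 10). The test was edgeR 4.0.16 (R 4.3.3) with TMM scaling, all 9 libraries, 1 term per genotype and a robust quasi-likelihood F test. A gene was called where its Benjamini-Hochberg adjusted p over all genes was under 0.05. An exact permutation of 3 against 3 libraries cannot go below 0.1. Positions, exon lengths and GC content came from GENCODE v29, and promoters from RefSeq (GRCh38.p14). Members and lists were chosen with earlier results of these data known. Values per library are given for the 5 largest called changes each way per comparison, GARS, KARS, HARS, HARS2 and WARS. Alternatives were DESeq2 1.42.0, limma-voom (limma 3.58.1), RLE scaling, no filter, a replicate block, fits of 2 groups, each library left out and, added after seeing the data, a lowess correction for GC content. Some items, including 1 member, are not reported here by name, though the counts over lists include them.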

Additional observations from a re-analysis of the deposited data

How the results depend on the processing

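Of the synthetase counts, those of genes that fell in K148R against parental cells stayed within 1.5 times of the values given under every alternative run. In K148Q against parental cells, without K148Q replicate 3, cytosolic genes called were 4 higher and 6 lower, and mitochondrial genes 3 higher and 4 lower. Over all libraries left out in turn, cytosolic genes called higher ran from 2 to 4 and lower from 2 to 6, and mitochondrial genes called higher from 1 to 3. With the GC content correction, 8 cytosolic genes were lower and 3 mitochondrial genes higher there. In K148R against parental cells that correction gave 5 cytosolic genes higher, and TARS was higher by 0.083 (adjusted p = 0.04) in place of -0.07. In K148R against K148Q cells it gave 6 cytosolic genes higher, leave-one-out fits gave 3 to 5, and the fit of those 2 groups alone gave 0 mitochondrial genes higher in place of 1, since HARS2 was lost (adjusted p = 0.06). The cause was not tested. MARS2, lower in K148R than in K148Q cells at adjusted p = 0.049, lost the call in 6 of 9 leave-one-out fits, and with DESeq2 (adjusted p = 0.061). With the replicate number as a block, 13 rather than 12 cytosolic genes were lower in K148R than in K148Q cells and the other synthetase counts were the same. Deviations of same-numbered libraries had correlations from -0.02 to 0.27, above 0.1 in 2 of 9 pairs. These were K148Q 3 with K148R 3 (0.27) and K148Q 1 with K148R 1 (0.14). Of differently numbered libraries, K148Q 2 with K148R 1 gave 0.17 and K148Q 3 with K148R 1 gave -0.24. Whether libraries with the same number share a batch cannot be told from these values. Genes with few reads, such as PARS2, limit what can be seen: its SE was 0.11.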
